A study of Saccharomyces cerevisiae with 116 samples.

Results

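Transcripts of 10 budding yeast genes of glutathione, thioredoxin and peroxide defence were followed through the lines and ancestors of a pair of mutation accumulation experiments. The genes were listed by name and locus, with earlier results of these data known. They are GSH1 (YJL101C) and GSH2 (YOL049W), GLR1 (YPL091W) and TRR1 (YDR353W), TRX2 (YGR209C), AHP1 (YLR109W), TSA1 (YML028W) and GPX2 (YBR244W), and SOD1 (YJR104C) and CTT1 (YGR088W). All 10 were found among the 7126 features counted, and all 10 passed the filter on low counts in every comparison.

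Glutathione is the main small thiol of the yeast cytosol, and thioredoxins are small proteins that carry out similar reductions. Both draw their electrons from NADPH through a dedicated reductase, and both hand them on to peroxidases that remove hydrogen peroxide and organic peroxides. Superoxide dismutase turns superoxide into hydrogen peroxide, and catalase breaks that down without a thiol. In this yeast many of these genes answer to the transcription factors Yap1 and Skn7, while CTT1 is a textbook target of the general stress factors Msn2 and Msn4 and is low in cells growing fast on glucose.

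In mutation accumulation, lines are passed through repeated bottlenecks so that most mutations and chromosome changes are kept. The Hh lines descend from a heterozygous diploid made by mating NCYC 3631, derived from the oak strain YPS606, with NCYC3596, derived from the strain the labels call DBPVG1106, with the alleles ho and ura3. They had passed 2108 generations. There were 10 aneuploid Hh lines and 5 euploid Hh lines, and their ancestor was sequenced in 3 libraries. The HH lines, at 2063 generations, descend from a homozygous diploid of S288C descent that carries leu2-3.112, lys2-801, ade2, ura 3-52, his3-delta-D200 and ho. They comprised 10 aneuploid and 11 euploid lines, with the HH ancestor in 2 libraries of run 2 and 3 libraries of run 1. HH lines carry names of an X or an SC kind, 7 and 14 lines in number, and X lines were set against run 2 and SC lines against run 1, a match assumed from the names. Each line gave 3 colonies, taken from log-phase YPD cultures, a rich medium with glucose, at 30 °C. Their counts were summed, so that the line is the replicate and levels below are line values in CPM (read counts scaled to a common library size, with TMM factors). Aneuploid lines within a class carry different chromosomes, and 1 line is the sole source of many karyotypes.

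Libraries held 4129372 to 12148296 reads in genes. Alignments that were not unique made up a median of 9.76% in Hh, 19.2% in HH SC and 28.4% in HH X libraries. The highest shares were 49.3%, 37.8% and 68.4% in that order. What this does to comparisons between these sets was not tested. HIS3, deleted per the HH label, had at most 26 reads in an HH library and at least 467 in every Hh library, and URA3 had at most 2 reads in an Hh library. In some libraries the expression of whole chromosomes went against the label. Colony 1 of HH123, all 3 colonies of HH152 (chromosome VII), colony 1 of Hh11 and colony 1 of Hh59 lacked a labelled gain, and all 3 colonies of Hh18 and colony 1 of Hh11 had chromosome XII raised without a label. All 3 colonies of HH152 had VIII raised without a label (0.52, 0.54 and 0.58 on the log2 scale), and colony 1 of Hh11, labelled monosomic for I, had that chromosome at 0.39. These libraries are called doubted below, with all of Hh18 among them, and tests that turn on them are given with and without them. The descriptions of colonies 2 and 3 of HH2 name other lines than their titles, which were followed here, and the series text counts 1 more euploid line of each experiment than was analysed here.

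Per length, TSA1, SOD1 and TRX2 were the most abundant of the 10 in the HH lines. In euploid HH lines the median FPKM (fragments per length and depth) was 6569 for TRX2, 6376 for TSA1 and 4064 for SOD1, and the line ranges of the 3 overlapped. TSA1 encodes the major cytosolic peroxiredoxin, SOD1 the cytosolic copper-zinc superoxide dismutase and TRX2 a cytosolic thioredoxin. AHP1, a peroxiredoxin that prefers organic peroxides, followed at 1786 FPKM. TRR1, GSH1 and GLR1 stood at 370, 283 and 240 FPKM with overlapping ranges, GSH2 at 92.3, and GPX2 at 38.2 and CTT1 at 36.8, again with overlapping ranges. In aneuploid Hh lines TSA1 and SOD1 led at 5411 and 4837 FPKM, CTT1 followed at 1440 beside TRX2 at 1289, and GSH1, at 46.1, was above GPX2 alone.

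**Figure D1:**
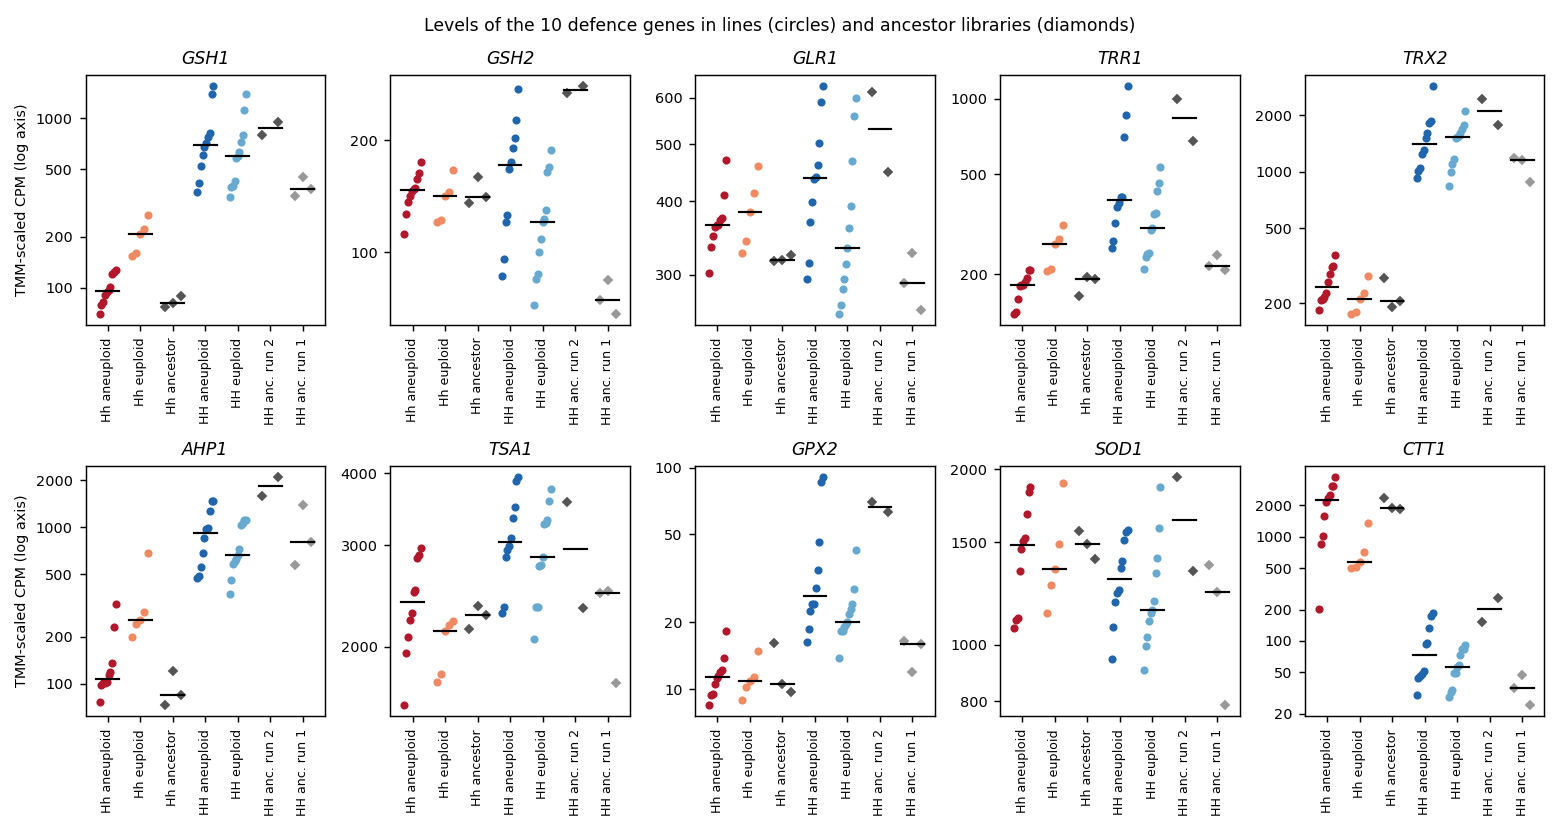
Levels of the 10 genes in CPM on a log axis, with 1 circle a line, 1 diamond an ancestor library and a bar at the median of each group. By median GSH1, TRX2 and AHP1 lie lower and CTT1 higher in the Hh groups than in the HH groups, and the line ranges of AHP1 overlap. Within Hh, GSH1 is the only member whose aneuploid and euploid lines do not overlap.

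The comparison of aneuploid with euploid lines asks what accompanies a change of chromosome number. In the Hh experiment GSH1, TRR1 and AHP1 were lower in aneuploid than in euploid lines, and the other 7 genes did not pass the test. GSH1 encodes glutamate-cysteine ligase, the first and rate-limiting enzyme of glutathione synthesis. Its 10 aneuploid lines ran from 70.4 CPM in Hh77 to 128 CPM in Hh76 with a median of 95.7, against 155 CPM in Hh9 to 268 CPM in Hh1 with a median of 207 in the 5 euploid lines. The classes did not overlap. Among all genes tested, every aneuploid line lay below every euploid line for 38 of 6189, or 0.614%. The log2 difference of GSH1 was −1.04 ± 0.15 (SE, adjusted p = 0.00231, edgeR). At an adjusted p under 0.05 the test called 9.87% of all genes in either direction, beside 3 of the 10 members. In RNA of whole cultures, a change in every cell and a change in the share of cells in a given state cannot be told apart.

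Single colonies of GSH1 were less uniform than the line values. In the euploid line Hh1 the colonies had 70.7, 78.5 and 610 CPM, and in Hh3 397, 111 and 126 CPM. In Hh5 they lay close together at 216, 191 and 199 CPM. Of 15 euploid colonies 7 lay above the highest of the 30 aneuploid colonies, which stood at 179 CPM, and the others lay inside the aneuploid range. The SD between colonies of a line was 0.63 on the log2 scale, beside 0.25 between lines of a class, the latter taken on means of 3 colonies. Leaving out colony 1, 2 or 3 of every line gave log2 differences of −0.95, −1.27 and −0.85 for GSH1, each past the threshold.

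TRR1, the cytosolic thioredoxin reductase, differed by −0.52 ± 0.13 on the log2 scale (SE, adjusted p = 0.0267, edgeR). Aneuploid lines had 139 CPM in Hh11 to 209 CPM in Hh4, with a median of 181, against 206 CPM in Hh9 to 314 CPM in Hh5, with a median of 265, in euploid lines. The classes met at the edges, where Hh4 and Hh8, at 209 and 208 CPM, lay just above Hh9.

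AHP1 differed by −1.25 ± 0.33 on the log2 scale (SE, adjusted p = 0.0318, edgeR). Its aneuploid lines had 76.1 CPM in Hh77 to 323 CPM in Hh8, with a median of 108. Its euploid lines had 200, 286, 243, 688 and 255 CPM in Hh1, Hh2, Hh3, Hh5 and Hh9. Hh8 and Hh11, at 323 and 231 CPM, lay inside the euploid range and the other 8 aneuploid lines below it. In Hh11 the colonies had 55.4, 426 and 193 CPM, the first of them a doubted library. Colonies of AHP1 spread widely, with an SD of 0.83 within lines. In Hh1 they had 77.0, 46.2 and 457 CPM.

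The calls of TRR1 and AHP1 were less stable than that of GSH1. Without the doubted libraries the difference was −0.99 for GSH1 (adjusted p = 0.0217), −0.51 for TRR1 (adjusted p = 0.0637) and −1.08 for AHP1 (adjusted p = 0.0958, edgeR), and 0.857% of all genes were called. Without Hh2, Hh3 or Hh5 in turn TRR1 had an adjusted p of 0.0844, 0.0816 and 0.0935. Under the same omissions AHP1 had 0.0750, 0.0760 and 0.143, and without Hh7, Hh49, Hh59 or Hh76 it had 0.0544, 0.0529, 0.0509 and 0.0507, so that it passed in 8 of 15 fits. AHP1 moved to −0.83 without Hh5. GSH1 passed in all 15 fits that omitted a line. Leaving out a colony number of every line ended the call of TRR1 without colony 2 (adjusted p = 0.0658) and that of AHP1 without colony 1 (0.0752) or 3 (0.0544).

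CTT1, the cytosolic catalase T, had the widest range of the 10 genes. Aneuploid lines ran from 203 CPM in Hh8 to 3711 CPM in Hh61, with a median of 2246, against 502 CPM in Hh3 to 1341 CPM in Hh9, with a median of 568.2, in euploid lines. Of the aneuploid lines 7 lay above every euploid line, Hh18 and Hh77 inside the euploid range at 1011 and 849 CPM, and Hh8 below it. The log2 difference was 1.48 ± 0.49 (SE, adjusted p = 0.0617, edgeR) and did not pass. CTT1 passed in 2 of 15 fits that omitted a line, with an adjusted p of 0.0062 without Hh8 and 0.0411 without Hh9, and DESeq2 gave 0.0088. The SD between Hh lines of a class was 1.07, higher than in 99.4% of all genes tested, and that between colonies 0.82. In Hh11 the colonies had 828, 2706 and 6063 CPM, the first of them a doubted library.

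**Figure D2:**
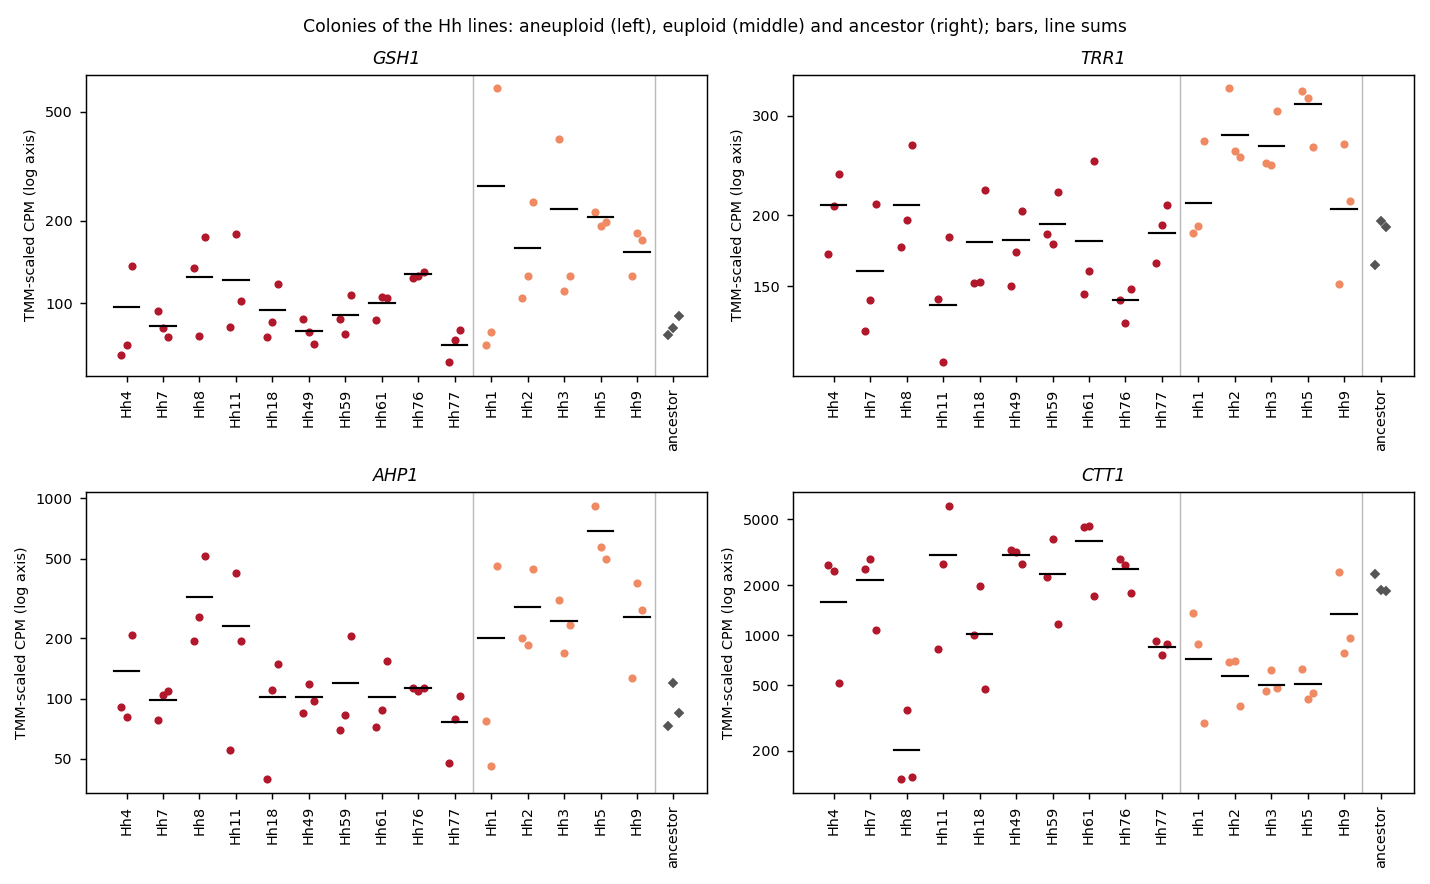
Colonies of GSH1, TRR1, AHP1 and CTT1 in the Hh lines, in CPM on a log axis, with 3 points a line, a bar at the value of the summed line and diamonds for the ancestor libraries. Single colonies of Hh1 and Hh3 lie far above their sisters for GSH1, and the ancestor lies with the aneuploid lines for GSH1 and CTT1.

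The other 6 members did not pass between the Hh classes. GSH2, the second enzyme of glutathione synthesis, had 112 to 175 CPM in aneuploid and 120 to 166 CPM in euploid lines and differed by 0.06 ± 0.11 (SE) on the log2 scale. GLR1, the glutathione reductase, differed by −0.06 ± 0.12. TRX2 had 184 to 359 CPM in aneuploid and 176 to 279 CPM in euploid lines, a difference of 0.27 ± 0.16. TSA1 differed by 0.24 ± 0.15, GPX2, a glutathione peroxidase-like enzyme, by 0.05 ± 0.17 and SOD1 by 0.02 ± 0.16. Their adjusted p ran from 0.264 to 0.946 (edgeR), with all classes overlapping.

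Sequence before these genes is shown for the 3 genes that were lower in aneuploid Hh lines, for CTT1 and for TRX2, since motifs of Yap1 and of Msn2 and Msn4 are known in this family. Each line gives 200 bases, from 300 to 101 bases before the start codon on the coding strand, read from the R64 reference genome of RefSeq. Capitals mark TTACTAA or TGACTAA, which are Yap1-type motifs, and AGGGG, the stress element, in either orientation. The windows are chrX:236457-236656 (minus strand) for GSH1, chrIV:1182999-1183198 (plus) for TRR1, chrXII:368481-368680 (plus) for AHP1, chrVII:654334-654533 (plus) for CTT1 and chrVII:913328-913527 (minus) for TRX2.
GSH1: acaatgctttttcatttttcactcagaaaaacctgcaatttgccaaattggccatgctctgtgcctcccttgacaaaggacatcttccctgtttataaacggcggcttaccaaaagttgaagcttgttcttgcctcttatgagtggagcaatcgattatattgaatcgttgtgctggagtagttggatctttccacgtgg
TRR1: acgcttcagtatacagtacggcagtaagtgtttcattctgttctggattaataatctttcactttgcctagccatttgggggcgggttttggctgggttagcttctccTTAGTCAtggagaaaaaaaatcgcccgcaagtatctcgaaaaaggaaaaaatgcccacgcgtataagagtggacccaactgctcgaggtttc
AHP1: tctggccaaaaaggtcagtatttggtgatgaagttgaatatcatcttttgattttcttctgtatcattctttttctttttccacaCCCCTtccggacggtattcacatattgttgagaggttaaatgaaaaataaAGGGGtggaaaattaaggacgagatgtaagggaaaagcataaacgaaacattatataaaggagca
CTT1: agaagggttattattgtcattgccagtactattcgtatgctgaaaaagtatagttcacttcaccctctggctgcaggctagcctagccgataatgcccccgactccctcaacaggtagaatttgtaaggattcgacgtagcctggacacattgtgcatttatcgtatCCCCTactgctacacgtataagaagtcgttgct
TRX2: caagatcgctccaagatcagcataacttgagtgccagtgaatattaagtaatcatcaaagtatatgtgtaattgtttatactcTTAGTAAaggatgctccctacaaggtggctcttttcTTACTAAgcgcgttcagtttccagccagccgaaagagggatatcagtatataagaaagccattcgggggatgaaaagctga
GSH1 held none of the 3 motifs within 300 bases of its start, TRR1 had TGACTAA 192 to 186 bases before it, and TRX2 had TTACTAA at 217 to 211 and at 181 to 175. AHP1 had AGGGG at 215 to 211 and at 165 to 161, and CTT1 at 133 to 129. Counted over 300 bases and both strands, TTACTAA occurred before 4 of the 10 members and 7.82% of 6001 coding genes, TGACTAA before 1 member and 3.68%, and AGGGG before 5 members and 22.2%. A match is a description of letters, and no binding was measured.

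The Hh ancestor lay with the aneuploid lines rather than with the euploid ones for GSH1, TRR1 and AHP1. The same held for CTT1, which did not pass between the classes. GSH1 had 76.9, 81.4 and 89.9 CPM in the ancestor libraries, inside the aneuploid range and below every euploid line. AHP1 had 73.3, 84.8 and 120 CPM, also below every euploid line, and TRR1 had 164, 191 and 196 CPM, below every euploid line too. CTT1 had 1842, 1868 and 2346 CPM, above every euploid line and inside the aneuploid range. Set against the ancestor, all 5 euploid lines were on the same side, with log2 differences of 0.94 to 1.59 for GSH1, 0.23 to 0.72 for TRR1, 1.04 to 2.81 for AHP1 and −2.06 to −0.53 for CTT1. The tests of single lines rested on colonies, and 3 of these 20 passed, all in Hh5. GSH1, TRR1 and AHP1 are named here for a class difference drawn from the same euploid lines. How many of all genes show this pattern was not counted.

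Genes of the culture state moved beside these members. A list of 9 glucose-repressed genes, among them ADH2, ICL1, PCK1 and ACS1, summed to 23606 to 69992 CPM in aneuploid lines, to 36012 to 49759 CPM in euploid lines and to 54353 to 63761 CPM in the Hh ancestor. In the class comparison 8 of the 9 were on the higher side in aneuploid lines, with a median log2 difference of 0.50 beside 0.04 over all genes, and ADH2 (2.04 ± 0.60) and ACS1 (1.39 ± 0.40) passed. Across the 15 Hh lines the mean log2 level of the list had r = 0.89 with CTT1, −0.79 with TRR1, −0.67 with AHP1 and −0.60 with GSH1. Members that did not differ between the classes had r of like size in part. These were TSA1 (0.67), GLR1 (−0.55) and TRX2 (0.51), beside SOD1 (0.33), GSH2 (0.28) and GPX2 (0.19). These values share libraries and scaling and are a description. Hh8, the lowest line for CTT1, was also the lowest for the list, and colony 3 of Hh1, the highest for GSH1, had 15066 CPM beside 61705 and 55236 in its sisters. The part of the culture state in the class differences was not tested.

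**Figure D3:**
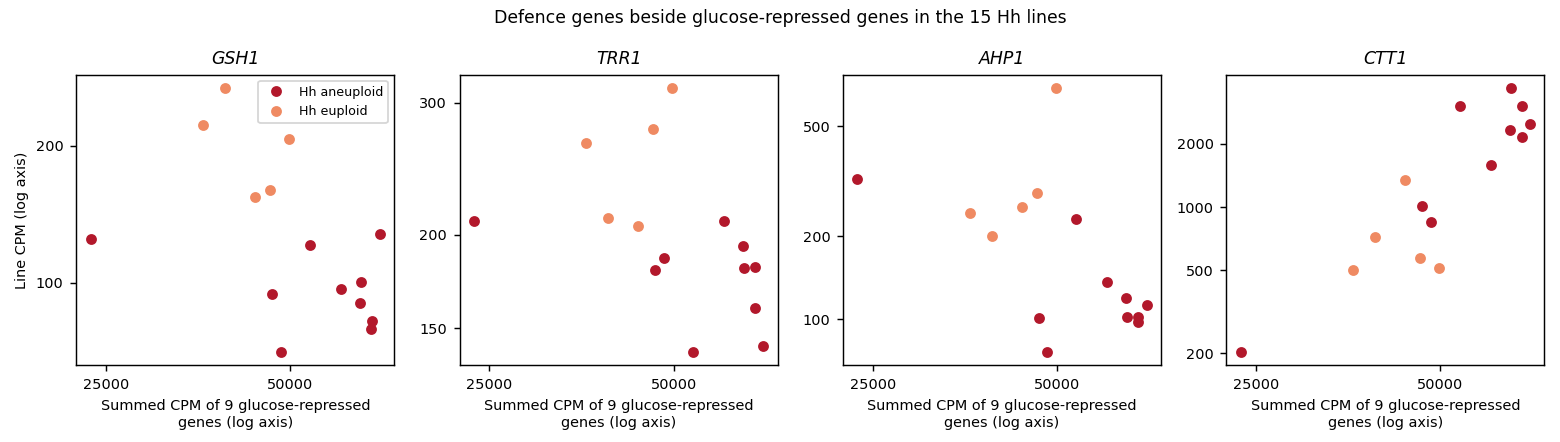
Line CPM of GSH1, TRR1, AHP1 and CTT1 against the summed CPM of 9 glucose-repressed genes in 10 aneuploid and 5 euploid Hh lines, on log axes. CTT1 rises with the list (r = 0.89 on mean log2 levels), and in the range of the euploid sums, 36012 to 49759, lie 2 aneuploid lines, Hh18 (doubted) and Hh77. They are below the euploid lines for GSH1, TRR1 and AHP1 and inside their range for CTT1.

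Among general stress genes the picture was mixed. Of 12 genes, GPH1 (0.86), glycogen phosphorylase, rose, and HSP104 (−1.13), a disaggregase, SSA4 (−1.14), a heat-induced Hsp70, and TPS1 (−0.56) and TSL1 (−0.63) of trehalose synthesis fell, with 7 of 12 on the higher side. Their summed level was 8117 to 24461 CPM in aneuploid lines and 8189 to 12284 CPM in euploid lines. Across the 15 lines the list had r = 0.61 with TRX2, 0.60 with CTT1 and −0.62 with TRR1, and −0.41 to 0.46 with the other members.

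The wider pathway also moved in parts in the Hh class comparison. Of 13 genes of glutathione use and turnover, ECM4, an omega-class glutathione transferase, rose by 1.39 ± 0.40, and OPT1, which imports glutathione, and DUG3, of the complex that degrades it, fell by 1.15 ± 0.23 and 0.74 ± 0.18. Of 9 peroxidases, catalases and dismutases beside the members, 3 rose and none fell. They were CTA1, the peroxisomal catalase (1.35 ± 0.31), GPX1 (1.04 ± 0.30) and HYR1, a thiol peroxidase that activates Yap1 (0.58 ± 0.18). Of 9 genes of NADPH supply, GND1, 6-phosphogluconate dehydrogenase, and SOL3, 6-phosphogluconolactonase, fell by 1.32 ± 0.33 and 0.82 ± 0.21. Of 14 thioredoxin and glutaredoxin genes GRX7 rose by 0.40 and GRX3 fell by 0.50, and of 6 regulators MSN2 fell by 0.48. Adjusted p of these genes ran from 0.0168 to 0.0480 (edgeR). Median differences were 0.14, 0.18, −0.25, 0.08 and 0.10 in the order given, beside 0.04 over all genes. Without the doubted libraries none of these genes passed, and of both culture lists HSP104 alone did.

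In the HH experiment no member passed, and no gene at all did. Of 6268 genes 0% passed in edgeR and 1 gene in DESeq2, and 614 had an edgeR p under 0.05 before adjustment. All 10 members were on the higher side in aneuploid lines, as were 3326 of the 6268 genes. Their median log2 difference was 0.18 beside 0.01 over all genes. Since most members moved together across HH lines, their signs are not 10 separate results. The signs rest in part on single lines. Without HH108 the difference was −0.21 for GSH1, −0.16 for TRX2 and −0.02 for CTT1, SOD1 turned to below 0 without HH108, HH119 or HH8, and TSA1 to −0.03 without HH50. GPX2 had the smallest p, with a difference of 0.63 ± 0.28 (SE, adjusted p = 0.502, edgeR). It stood at 16.4 to 90.6 CPM in aneuploid and 13.8 to 42.5 CPM in euploid lines, and its 2 highest lines were HH152, a doubted line, and HH108, at 90.6 and 86.2 CPM. TRR1 differed by 0.51 ± 0.25 (adjusted p = 0.507), with 1125 CPM in HH108, 863 in HH29 and 706 in HH152 beside 253 to 408 in the other 7 aneuploid lines. Without HH108 the difference was 0.08 for TRR1 and 0.15 for GPX2, so that line decides both values. Within SC lines TRR1 and GPX2 differed by 0.67 ± 0.31 and 0.77 ± 0.32, and within X lines by 0.16 ± 0.39 and 0.34 ± 0.50 (SE). Leaving out a line brought no member below an adjusted p of 0.376. The 9 glucose-repressed genes summed to 437 to 9663 CPM in aneuploid and 2310 to 11038 CPM in euploid HH lines, with 437 in HH152 and 599 in HH108. None of the genes in the pathway and culture lists passed in HH. GSH1, the clearest member in Hh, differed by 0.13 ± 0.28 in HH, at 367 to 1555 CPM in aneuploid and 342 to 1392 CPM in euploid lines.

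**Figure D4:**
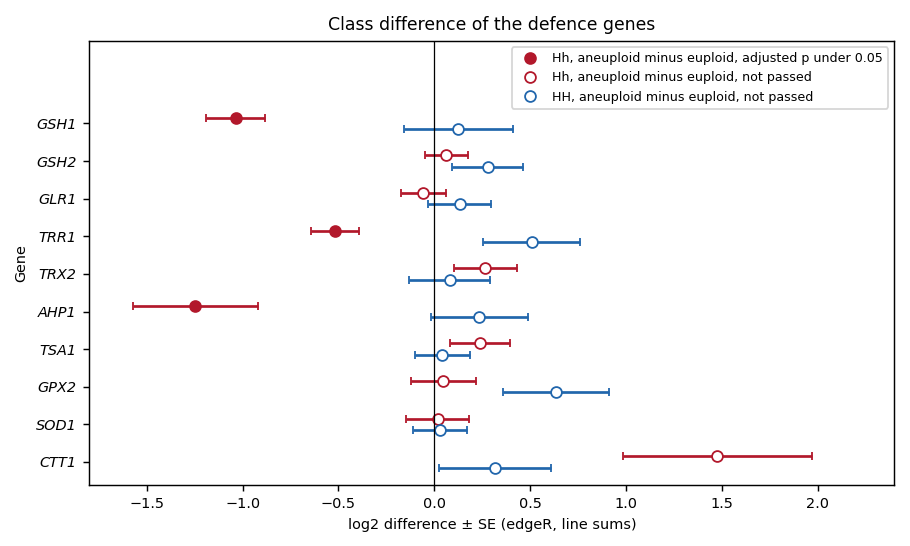
Aneuploid minus euploid log2 difference of the 10 genes with its SE, in Hh (red) and HH (blue), filled where the adjusted p was under 0.05. GSH1, TRR1 and AHP1 are filled in Hh, at −1.04, −0.52 and −1.25, and none is in HH.

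Whether the class difference itself differed between the experiments was tested in a joint fit. For AHP1 the Hh difference minus the HH difference was −1.46 ± 0.42 (SE, adjusted p = 0.0377, edgeR), and 5.09% of all genes passed. GSH1 (−1.14 ± 0.37, adjusted p = 0.0597) and TRR1 (−1.002 ± 0.32, adjusted p = 0.0590) missed the threshold, as did CTT1 (1.19 ± 0.56, adjusted p = 0.196). AHP1 was at −1.25 (adjusted p = 0.11) without the doubted libraries. It passed in 24 of 36 fits that left out a line and in 2 of 3 that left out a colony number, where its adjusted p without colony 1 was 0.215. In the lists GPX1 (1.66) and YAP1 (0.55) were positive and passed, while GND1 (−2.004), OPT1 (−1.94), SOL3 (−1.28), DUG3 (−1.11) and MSN2 (−0.50) were negative and passed, as did HSP104 (−1.32), SSA4 (−1.62), ACS1 (2.07) and CYB2 (1.17) of the culture lists. Their adjusted p ran from 0.00512 to 0.0425 (edgeR).

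Lines were next set against their own ancestors. In Hh, 2 of 150 pairs of a member and a line were called higher and 2 lower (1.33% each), where over all genes 1.37% were higher and 0.993% lower. Leaving out colony 1, 2 or 3 of every line and ancestor left 0, 1 and 5 called pairs. The higher pairs were AHP1 (2.81 ± 0.66, SE) and TRR1 (0.72 ± 0.24) in the euploid line Hh5, and the lower were CTT1 in Hh5 (−2.06 ± 0.61) and in the aneuploid line Hh8 (−3.27 ± 0.65). Hh8 carries 4 copies of chromosome XVI, and CTT1 lies on VII. In these lines 9.74% and 9.54% of all genes were called higher and lower in Hh5 and 4.97% lower in Hh8. The Hh5 calls ended when colony 1 or 2 of every line and ancestor was left out. Without colony 1 Hh5 had 1 gene called higher and 0 lower, and without colony 2 it had 5 and 2. CTT1 in Hh8 passed without colony 2 or 3.

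In HH, 10 of 210 pairs were called higher (4.76%) and none lower, where over all genes 1.2% were higher and 1.07% lower. DESeq2 called 10 higher and 2 lower, and 42 pairs had an unadjusted p under 0.05. Without colony 3 of every line 8 pairs were called higher and 9 lower, the lower ones in the X lines HH29, HH50, HH117 and HH123. That omission was uneven for X lines, since run 2 of the ancestor has no library numbered 3 and lost none. Of the 10 pairs 7 lay in HH108, trisomic for VIII and monosomic for IX, neither of which holds a member. GPX2 was at 2.59 ± 0.42 (SE) there, TRR1 at 2.37 ± 0.40, CTT1 at 1.97 ± 0.47, GSH1 at 1.96 ± 0.41, GSH2 at 1.86 ± 0.28, TRX2 at 1.47 ± 0.49 and GLR1 at 1.01 ± 0.28, with adjusted p of 2.62e-06 to 0.0167 (edgeR). HH108 departed widely, with 15.9% of all genes called higher. AHP1, TSA1 and SOD1 were not called there. The 9 glucose-repressed genes summed to 599 CPM in HH108, against 6467 to 7738 CPM in run 1 of the ancestor, and their part in the result was not tested. The euploid line HH4 gave the other 3 pairs, GSH1 at 1.79 ± 0.40, GSH2 at 1.11 ± 0.27 and GLR1 at 0.89 ± 0.28, with 2.97% of all genes called higher. Without colony 2 no gene was called in HH4, and without colony 1 or 3 GSH1 alone of the 3 passed. In HH4 the colonies had 1520, 1498 and 1110 CPM of GSH1, against 348, 381 and 451 CPM in run 1 of the ancestor.

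**Figure D5:**
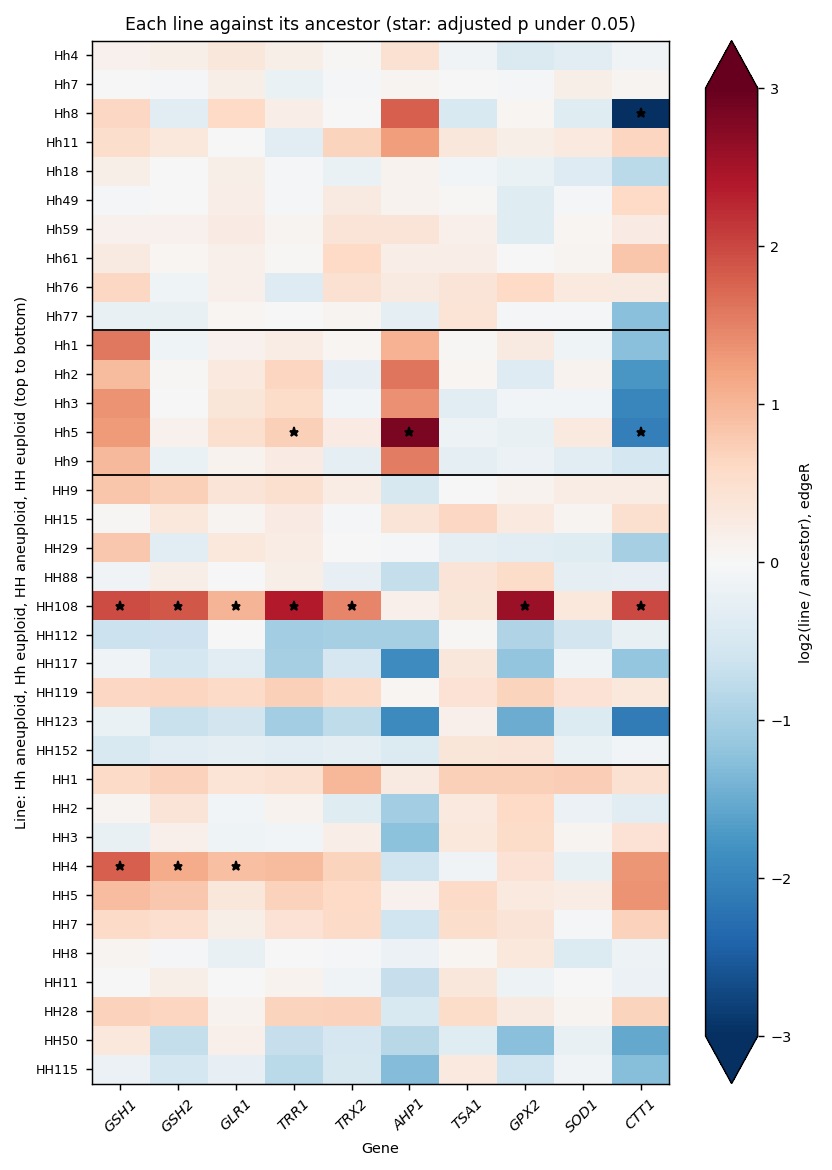
Log2 difference of each line from its ancestor for the 10 genes, with a star at an adjusted p under 0.05 and lines in the order Hh aneuploid, Hh euploid, HH aneuploid and HH euploid. The row of HH108 holds 7 stars, and GSH1 lies at least 0.94 above the ancestor in the 5 euploid Hh lines and at most 0.62 above it in the aneuploid Hh lines.

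The Hh and HH ancestors were also set against each other. Strain, run and culture state cannot be told apart in these comparisons. In the Hh ancestor CTT1 was at 1842 to 2346 CPM, against 150 and 257 CPM in run 2 of the HH ancestor, a log2 difference of 3.33 ± 0.36 (SE, adjusted p = 1.91e-05, edgeR). AHP1 had 73.3 to 120 CPM in the Hh ancestor, against 1584 and 2090 CPM in HH run 2 (−4.30 ± 0.37). GSH1 was at −3.39 ± 0.21, TRX2 at −3.23 ± 0.27, GPX2 at −2.43 ± 0.24, TRR1 at −2.18 ± 0.21, GSH2 at −0.90 ± 0.16 and GLR1 at −0.72 ± 0.20. TSA1 and SOD1 did not pass. So 8 of the 10 were called, where 50% of all genes were.

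Which run of the HH ancestor was used changed several of these values. Run 2 was higher than run 1 for the same 8 members, by 2.51 ± 0.32 (SE) for CTT1, 2.16 for GPX2, 1.93 for TRR1, 1.85 for GSH2, 1.16 for GSH1, 1.00 for AHP1, 0.97 for TRX2 and 0.86 for GLR1, where 51.4% of all genes were called. The 9 glucose-repressed genes were all lower in run 2, with sums of 584 and 660 CPM in run 2 against 6467 to 7738 CPM in run 1. Set against run 1, the Hh ancestor differed by −3.30 ± 0.34 for AHP1, −2.26 ± 0.25 for TRX2, −2.24 ± 0.19 for GSH1 and 5.84 ± 0.35 for CTT1. GSH2 turned to 0.95 ± 0.15, and GLR1, TRR1 and GPX2 no longer passed, with 5 of 10 members and 60.8% of all genes called. The comparisons share the Hh ancestor libraries. In CTT1, AHP1, GSH1 and TRX2 the direction was thus the same with either run. Run 2 has 2 libraries. Leaving out 1 library of either run could end the call of AHP1 between the runs, leaving out 1 of run 2 ended that of TRX2 (0.72), and without the same library GLR1 no longer passed between Hh and run 2 (−0.48).

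The lines of the experiments lay apart for several members, beside sums of the 9 glucose-repressed genes of 23606 to 69992 CPM in Hh lines and 437 to 11038 CPM in HH lines. How many of all genes lie apart in this way was not counted, and strain, run and culture state cannot be told apart here either. TRX2 had 176 to 359 CPM in the 15 Hh lines and 844 to 2865 CPM in the 21 HH lines. CTT1 had 203 to 3711 CPM in Hh and 29.0 to 186 CPM in HH lines. GSH1 showed the opposite order from CTT1, at 70.4 to 268 CPM in Hh lines against 342 to 1555 CPM in HH lines. AHP1 leaned the same way as GSH1 but its ranges overlapped, at 76.1 to 688 CPM in Hh and 376 to 1482 CPM in HH lines.

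Some lines carry the chromosome of a member in altered number. Expression in proportion to copies would give a slope of 1 on log2 copies. By label only Hh11 has altered copies of XV, only Hh8 of XVI and only Hh77 of XII among Hh lines. Among HH lines only HH112 has altered copies of XVI. For the members there, copy number cannot be told apart from other traits of that line. In Hh, TRX2 on VII had a slope of 0.66 ± 0.37 (SE), GSH2 on XV 0.52 ± 0.33, GLR1 on XVI 0.36 ± 0.20, CTT1 on VII 1.96 ± 1.14 and AHP1 on XII −2.56 ± 1.62. None of the 5 passed (adjusted p of 0.165 to 0.228, edgeR), beside 36.3% of the 2966 genes tested on altered chromosomes. Without the doubted libraries the slopes were 0.49 ± 0.43 for TRX2, 0.78 ± 0.36 for GSH2, 0.35 ± 0.21 for GLR1, 1.81 ± 1.26 for CTT1 and −2.75 ± 1.61 for AHP1, and none passed. In HH, GLR1 had 0.04 ± 0.67 and did not pass beside 27.4% of 2248 genes, and had 0.02 ± 0.70 without the doubted libraries. TRX2 and CTT1 were fitted in HH by label and did not pass. Their slopes do not measure dosage, since HH152 alone is labelled with a gain of VII and its colonies show none. AHP1 stood at 76.1 CPM in Hh77, trisomic for XII, and at 101 CPM in Hh18, where XII was raised without a label, against 200 to 688 CPM in the 5 euploid lines. The median gene of XII was at 0.45 to 0.55 in the colonies of Hh77 and Hh18. The other aneuploid lines have 2 labelled copies of XII. Of these, Hh7 had 98.2 CPM of AHP1 and Hh49 and Hh61 had 102 CPM, and the rest had 113 to 323 CPM. The rest include Hh11, whose doubted colony 1 had XII raised without a label (0.52). That colony had 55.4 CPM of AHP1, beside 426 and 193 CPM in its sisters. A low level beside more copies of XII thus cannot be told apart from the class difference. GLR1 stood at 471 CPM in Hh8 with 4 copies of XVI, against 327 to 460 CPM in euploid lines, which is 0.30 on the log2 scale above their median, where the colonies had the median gene of XVI at 0.85 to 0.93. TRX2 had 315 and 287 CPM in Hh61 and Hh59, trisomic for VII, against 176 to 279 CPM in euploid lines, and colony 1 of Hh59 showed no gain of VII. On the partly gained chromosome X of Hh76, GSH1 was at 128 CPM, the highest of the aneuploid lines, and SOD1 at 1863 CPM, against 155 to 268 and 1135 to 1899 CPM in euploid lines.

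The members moved together more in HH than in Hh lines. After subtracting the mean of the experiment and name series, 41 of 45 pairs of members had a positive r across the 21 HH lines (median 0.47) and 24 of 45 across the 15 Hh lines (median 0.05). The highest in HH were GSH2 with TRR1 (0.90) and GSH1 with GLR1 (0.87), and TSA1 was the odd member, at −0.36 with GLR1. In Hh the highest were GSH1 with AHP1 (0.75) and TRX2 with SOD1 (0.72), and the lowest TRR1 with CTT1 (−0.69). Over all 36 lines the median was 0.36, and 0.28 without HH108. The HH median was not taken without HH108, and no median for pairs of other genes was taken. These values describe lines that share libraries, scaling and culture, and no test was made. Over the 36 lines, the genes most like TRX2 were TSA2, a cytosolic peroxiredoxin (r = 0.80), GTO1, a glutathione transferase (0.78), ADP1 (0.76), GSH2 (0.74) and RPT5, a proteasome subunit (0.74). Those most like CTT1 were YBT1, a vacuolar transporter (0.89), QDR3, a plasma membrane transporter (0.81), YAL037C-B (0.81), DPS1, the cytosolic aspartyl-tRNA synthetase (0.79), and PTC5, a mitochondrial phosphatase (0.79).

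The members also differed in their spread between lines. In HH, GSH1 (SD 0.65 on the log2 scale), CTT1 (0.65) and GPX2 (0.60) varied more between lines of a class than 90.3% to 92.8% of all genes tested, and TSA1 (0.26) and SOD1 (0.25) less than the median gene (0.31). In Hh, CTT1 (1.07) and AHP1 (0.67) exceeded 99.4% and 96.4% of genes, while GLR1 (0.16) and GSH2 (0.17) were among the least variable 12.0%. In the Hh lines the SD between colonies exceeded that between lines for 9 of the 10 members, CTT1 being the exception. The median gene did the same, with 0.36 between colonies and 0.29 between lines. These SDs are unlike measures, since that between lines is of means of 3 colonies and that between colonies is of single libraries. TSA1 and TRX2 have close paralogues, TSA2 and TRX1, and reads that fit both may have been lost from either.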

How the data were processed

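RNA of 116 libraries of log-phase cultures was sequenced as 75-base single reads of a stranded kit, per the labels' protocols. The authors deposited raw counts per gene and Cuffnorm FPKM values, made with TopHat2 2.1.1, HTSeq 0.6.1pl and Cufflinks 2.2.1 on sacCer3, per the submitters' processing notes. The strand option of HTSeq was not given in the sources used here. Rows that name no gene were left out.

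Counts of the 3 colonies of a line were summed, so that n is lines, and TMM-scaled. The classes and their difference were tested by edgeR 4.0.16 quasi-likelihood fits (R 4.3.3) over all genes that passed a filter on low counts, with Benjamini-Hochberg adjustment and a threshold of 0.05. HH fits carried a term for the name series. Lines against ancestors, and ancestors against each other, were tested on single libraries. p-values there measure the spread between colonies or libraries, which may be technical. Dosage fits used log2 of labelled copies, and their leave-out fits adjusted p over genes of the members' chromosomes. limma 3.58.1 and DESeq2 1.42.0 served as alternatives. Log2 levels for SDs and correlations used log2(CPM + 0.5). Fits were tested on simulated data.

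The members and gene lists were chosen with earlier results of these data known. All 10 members are reported. From each list the genes that passed are named (where none passed, at most 4 could be), and the 5 genes most like TRX2 and CTT1 by Pearson's r.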

Additional observations from a re-analysis of the deposited data

Results flagged for a closer look

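In 30 groups of member and class, the sample farthest from the others was compared with the range of its group, a comparison that chance flags in about 1 of 20 groups. It singled out 3 values. TRX2 stood at 2865 CPM in HH108, far above the other aneuploid HH lines. AHP1 stood at 688 CPM in Hh5 and CTT1 at 1341 CPM in Hh9, each far above the other euploid Hh lines. In Hh5 the AHP1 colonies had 920, 573 and 499 CPM, all above the other euploid line values. In Hh9 the CTT1 colonies had 2411, 779 and 962 CPM, so that colony 1 carries the height of the line.

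The class difference of AHP1 differed between the experiments in the joint test, by −1.46 on the log2 scale for Hh minus HH (adjusted p = 0.0377, edgeR). Over the alternatives listed in the next part it did not always pass.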

How the results depend on the processing

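GSH2 between the Hh and HH ancestors was called with opposite signs, −0.90 against run 2 and 0.95 against run 1. No other called member changed sign between those runs. Without the doubted libraries the members called in the Hh class comparison numbered 1, and for the difference between experiments 0, where DESeq2 gave 3. Leaving out a line or a colony number gave 1 to 4 members in the Hh classes, 0 to 3 for the difference, and 0 to 1 for dosage in Hh. Against the ancestors, leaving out a colony number gave 5 to 17 pairs in HH, the 17 being 8 higher and 9 lower, and 0 to 5 in Hh, and DESeq2 gave 8 in Hh. The 17 came without colony 3, where run 2 of the HH ancestor lost no library. The leave-outs of colony numbers in the class comparisons and the Hh ancestor against run 1 were chosen after seeing the data. Over all genes the Hh class comparison called 26 to 1547 when a line was left out, 1109 by DESeq2 and 53 without the doubted libraries, and the cause was not tested.

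Whether colony numbers pair samples was not settled. Deviations of same-numbered colonies had a mean r of 0.00 (SC), 0.37 (X) and 0.18 (Hh), with a lowest r of −0.66, −0.60 and −0.66. Those of colonies with other numbers had a mean r of −0.002, −0.18 and −0.09. Same-numbered colonies were thus more alike than others in X and Hh. In every X line of HH, colony 3 had the lowest sum of the 9 glucose-repressed genes, at 253 to 561 CPM. A replicate block gave 9 called pairs in Hh against the ancestor and 10 in HH, and in the Hh classes, fitted on single libraries by limma-voom, 4 members, CTT1 among them.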
